A study of Flaveria ramosissima and Flaveria robusta and Flaveria sonorensis with 9 samples.

Results

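The leaf response of Flaveria ramosissima to 4 weeks at low CO2 was examined. F. ramosissima is labelled a Type II C3-C4 species. The leaves, mature and newly expanded, came from plants kept for 4 weeks at a CO2 level labelled 100 and from plants at a control level labelled 380. Both levels carry a light-intensity unit in the labels and are quoted without it. Both groups shared 22 °C, 70% humidity and days of 16 h under 200 µmol of light, with nights of 8 h. Each group was 1 labelled sample with 3 numbered mRNA-seq libraries, which makes 6 libraries. It is not stated in the labels or methods if these were separate plants, so the p-values measure only the spread between libraries, which may be technical. The number of growth runs per CO2 level is not stated either, and with 1 run each the run and the CO2 level cannot be told apart. In a bulk leaf sample, fewer cells of a type and less RNA per cell cannot be told apart.

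The deposited table has 1 row per gene ID and gives TPM, a transcript level relative to all transcripts of a library that keeps no read depth. Of 29566 rows, 15638 averaged 1 TPM or more across the 6 libraries and had an ID that occurs once, and these rows make up the comparison. The table also holds leaf libraries of the C3 species F. robusta, the Type I C3-C4 species F. sonorensis and the C4 species F. trinervia from the same experiment, which are used here only to show where F. ramosissima differs. The IDs are not paired with gene names (0 of the IDs held one). Rows are therefore described by their level, their change and the species that share them, and neither pathways nor the labelled tissue could be checked by marker genes.

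As background, photorespiration starts when Rubisco fixes O2 in place of CO2, and it grows as CO2 falls. C3-C4 plants confine the release of photorespiratory CO2 by glycine decarboxylase largely to the bundle sheath, where Rubisco can fix the CO2 again. Type II C3-C4 species add a partial C4 cycle, in which phosphoenolpyruvate carboxylase fixes some CO2 in the mesophyll. In C4 species this cycle carries most of the CO2 to the bundle sheath. A low CO2 level is thus a condition under which these photosynthetic types are known to differ in carbon gain.

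The 6 libraries did not agree equally well. The number of rows at 1 TPM or more was 14582, 14564 and 15685 in low CO2 libraries 1 to 3, against 16564, 15875 and 12813 in control libraries 1 to 3. Control library 3 was thus the lowest of all and the other control libraries the highest. The difference between the groups (low CO2 minus control) was -140 rows, which was within the spread between libraries (exact permutation test over the 20 splits of 6 libraries, two-sided p = 0.9, where the smallest possible is 0.1). Leaving out control library 3 gave -1276 rows (two-sided exact permutation p = 0.2).

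Control library 3 also stood apart in its levels. In 3724 rows (23.8%) it lay at least 2-fold below both other control libraries on the log2(TPM + 1) scale, and in 250 rows at least 2-fold above both. Its rank correlation with the other 5 libraries across the 15638 rows, which are not independent replicates, lay between 0.777 and 0.817. Its own 100 most abundant rows held 52.9% of its TPM, while the share was 42.71% to 46.75% in the low CO2 libraries and 40.74% and 42.85% in control libraries 1 and 2. Low CO2 library 3 was intermediate, since its rank correlation was 0.923 and 0.926 with the other low CO2 libraries and 0.921 and 0.902 with control libraries 1 and 2. The main counts are therefore given with and without control library 3.

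**Figure D1:**
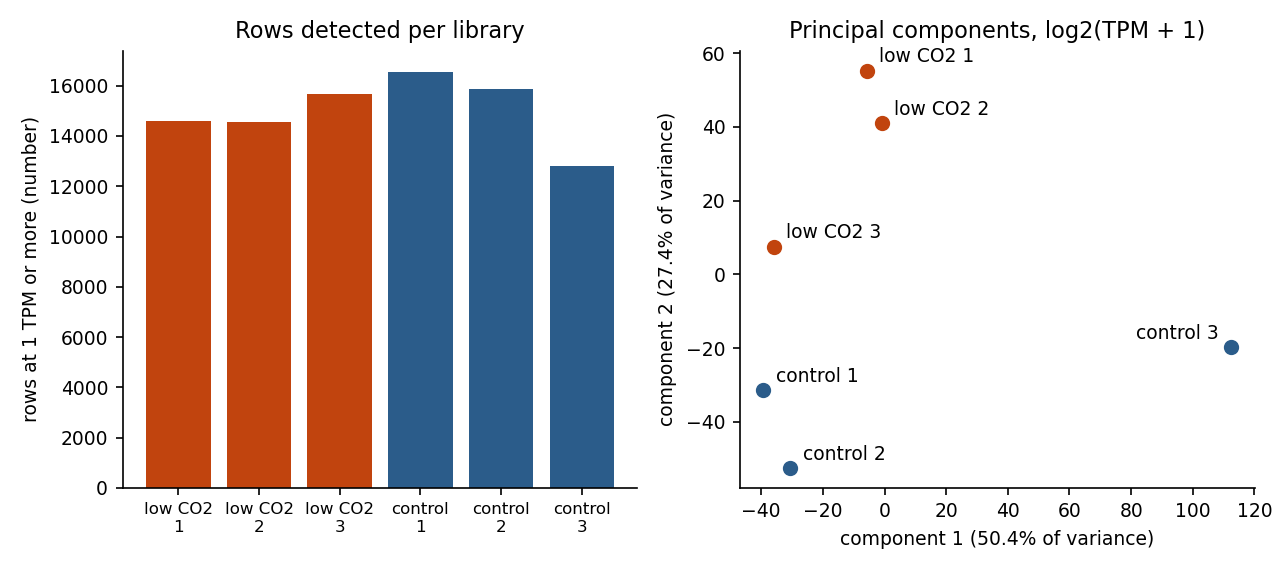
Left, bars give the number of rows at 1 TPM or more in each F. ramosissima library (low CO2 red, control blue). Right, points are the same libraries on the first 2 principal components of log2(TPM + 1) over 15638 rows. Control library 3 has the lowest bar (12813 rows) and lies alone on component 1 (50.4% of the variance), while component 2 (27.4%) places all low CO2 libraries above all control libraries.

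With all 6 libraries a small set of rows was called higher at low CO2, and no row was called lower. With limma on log2(TPM + 1), a linear model with shared variance estimates, 4 of 15638 rows (0.0256%) were called higher and 0 lower at a Benjamini-Hochberg adjusted p below 0.05, while 706 rows had an unadjusted p below 0.05 in the higher and 1029 in the lower direction. The median standard error of a change was 0.36 on the log2 scale, so that a change of 2-fold, which is 1 on this scale, was less than 3 standard errors for a typical row. Leaving out control library 3 lowered the median standard error to 0.28, and limma then called 23 rows (0.147%), 11 higher and 12 lower, with 3263 rows at an unadjusted p below 0.05. All 4 rows called with 6 libraries were among these 23. The calls with 6 libraries depended on the libraries other than control library 3, as the count was 0 when any 1 low CO2 library or control library 2 was left out (709 to 1659 rows at an unadjusted p below 0.05 in limma) and 1 without control library 1. Treating the library number as a block also left 0 calls.

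The most abundant of the 4 called rows was also among the 135 rows with a mean of 1000 TPM or more. It had 4015, 4267 and 4086 TPM in low CO2 libraries 1 to 3, against 617, 508 and 469 TPM in the control libraries. The low CO2 libraries differed by little among themselves and lay far above every control library, control library 3 included. The ratio of the means was 7.76, and the difference in log2(TPM + 1) was 2.96 (SE 0.19, limma adjusted p = 0.00916). In F. robusta the same row had 101.8 ± 62.5 TPM at low CO2 and 39.5 ± 2.40 TPM at control (SD, n = 3 libraries each, limma adjusted p = 0.0340). In F. sonorensis it had 184 ± 38.3 TPM at low CO2 and 165.8 ± 29.5 TPM at control (limma adjusted p = 0.619). In F. trinervia it did not exceed 0.44 TPM in any library, and it was not tested there.

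The other 3 called rows were at 2.37 TPM or less in every control library. Gene23445 had 51.1, 42.5 and 56.1 TPM in low CO2 libraries 1 to 3, against 1.62, 2.37 and 1.0 TPM in the control libraries. All low CO2 libraries were above 40 TPM and all control libraries below 3 TPM. Its change was 4.28 (SE 0.31, log2(TPM + 1), limma adjusted p = 0.00916 with 6 libraries and 0.00680 without control library 3). Gene23445 was listed at 0 in all 18 libraries of the other species, as was another called row, which had 44.6, 25.3 and 51.1 TPM in low CO2 libraries, against 0.87, 0.86 and 1.80 TPM in control libraries. The groups of that row were again far apart (change 4.22, SE 0.36, limma adjusted p = 0.0206). The last called row had 18.5, 29.7 and 22.1 TPM in low CO2 libraries, against 0.60, 0.57 and 0.21 TPM in control libraries (change 4.05, SE 0.30, limma adjusted p = 0.00916). That row was listed at 0 in F. robusta and F. sonorensis. In F. trinervia it was an abundant transcript, with 1549 ± 59.96 TPM at low CO2 and 796 ± 211 TPM at control (SD, n = 3 libraries each, limma adjusted p = 0.00829). Its listed level in F. ramosissima was thus far below that in F. trinervia at both CO2 levels. How rows pair genes of different species is not stated.

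The IDs with the largest rise and the largest falls at a mean of at least 10 TPM were not called, because their libraries differed widely within a group. Gene21045 had 92.96, 6.79 and 29.1 TPM in low CO2 libraries 1 to 3, against 0.080, 0 and 0.10 TPM in the control libraries. It was practically undetected at control and present in every low CO2 library, but the low CO2 libraries spanned more than 10-fold. Its change was 4.73 (SE 0.80, log2(TPM + 1), limma adjusted p = 0.199), and 4.75 without control library 3 (adjusted p = 0.109). In F. sonorensis the same ID had 1132 ± 259 TPM at low CO2 and 16.0 ± 4.84 TPM at control (SD, n = 3 libraries each, limma adjusted p = 6.00e-06). In F. robusta it had 2.29 ± 2.93 TPM at low CO2 and 0.070 ± 0.121 TPM at control (limma adjusted p = 0.0958), and in F. trinervia it was listed at 0 in every library.

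Of the falling IDs, Gene04686 had 8.04, 10.1 and 39.8 TPM in low CO2 libraries 1 to 3, against 289, 108 and 177 TPM in the control libraries. Low CO2 library 3 was the highest of its group and still below every control library. Its change was -3.47 (SE 0.63, limma adjusted p = 0.201), and the adjusted p was 0.113 without control library 3. The same ID fell in every other species, with changes of -5.82 in F. robusta (limma adjusted p = 7.60e-05), -5.61 in F. sonorensis (2.28e-06) and -1.89 in F. trinervia (0.00751). The difference between the F. ramosissima change and the mean of the other species was 0.97 (SE 0.55, limma adjusted p = 0.500), which is within the error. Gene03284 had 4.80, 6.99 and 13.2 TPM in low CO2 libraries, against 116, 29.5 and 244 TPM in control libraries. Its groups did not overlap although the control libraries spanned 8-fold, and its change was -3.46 (SE 0.75, adjusted p = 0.236), or -2.78 without control library 3 (adjusted p = 0.118). In F. robusta it had 3.05 ± 0.970 TPM at low CO2 and 18.5 ± 4.04 TPM at control (SD, n = 3 libraries each, limma adjusted p = 0.000356), while F. sonorensis had 9.29 ± 2.43 TPM at low CO2 and 15.6 ± 6.03 TPM at control (adjusted p = 0.154). The ID was listed at 0 in F. trinervia.

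**Figure D2:**
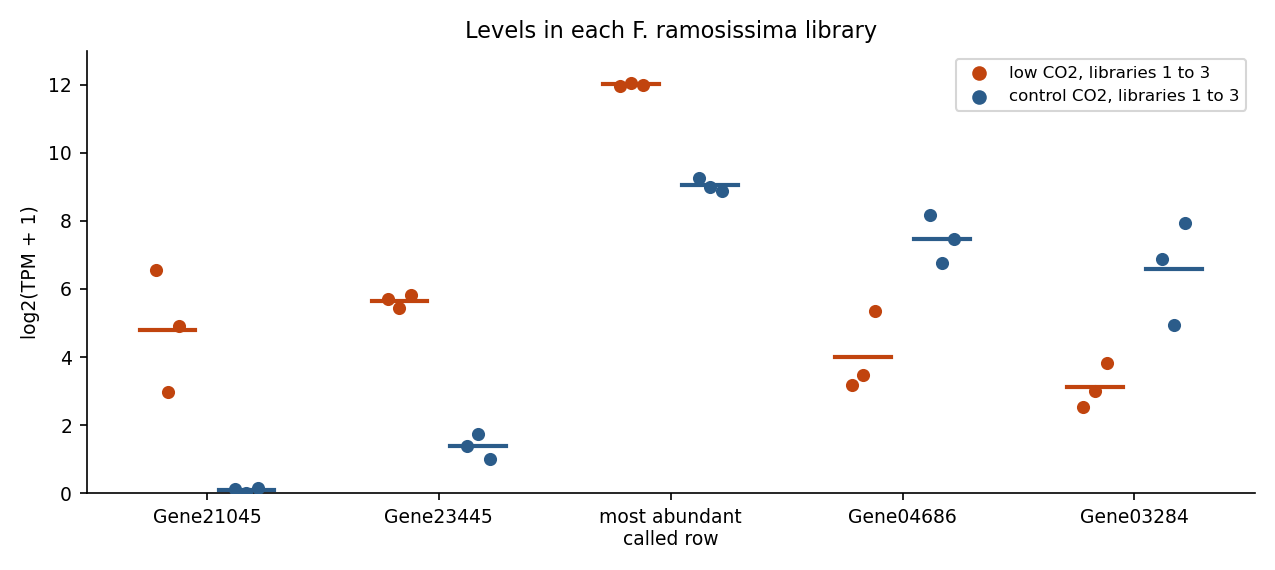
Points are the 3 libraries of each group and bars their means on the log2(TPM + 1) scale, with low CO2 (red) left of control (blue). In all 5 rows every low CO2 library lies on one side of every control library. Only the most abundant called row (change 2.96) and Gene23445 (4.28) were called by limma with 6 libraries.

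Beyond the called rows, the comparison was described by rows that changed at least 2-fold on the log2(TPM + 1) scale and whose low CO2 libraries all lay above, or all below, every control library. These rows are said below to stand apart, and no test is attached to the count. With 6 libraries 411 rows (2.63%) stood apart above and 520 rows (3.33%) below. When control library 3 was left out, the counts were 298 (1.91%) above and 1149 (7.35%) below, so the excess of rows below was larger without this library. Leaving out control library 1 instead turned the balance, with 933 rows above and 667 below. Of the 411 rows, 241 also stood apart above without control library 3, and 452 of the 520 also stood apart below. The split between higher and lower depended on the scaling of the libraries too. It was 517 above and 477 below after median-ratio scaling. The median change of all rows was -0.03 with 6 libraries and -0.22 without control library 3, and median-ratio scaling of the remaining 5 libraries moved it by 0.22, to -0.02.

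The rows that stood apart were mostly changed by moderate amounts. The median change was 1.31 among the 411 rows and -1.28 among the 520, and 40 and 62 rows reached 4-fold (30 and 112 without control library 3). In 87 rows the lowest low CO2 library was at least 2 times the highest control library, and in 103 rows the lowest control library was at least 2 times the highest low CO2 library. These counts were 112 and 319 without control library 3. Together the 411 rows made up 5.60%, 5.15% and 4.61% of the full TPM scale in low CO2 libraries 1 to 3, against 2.42%, 1.95% and 1.56% in control libraries. The 520 rows made up 0.942%, 1.35% and 1.46% in low CO2 libraries, against 2.67%, 3.93% and 3.31% in control libraries. The sums follow from the choice of the rows and show only what part of the transcript pool they held.

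**Figure D3:**
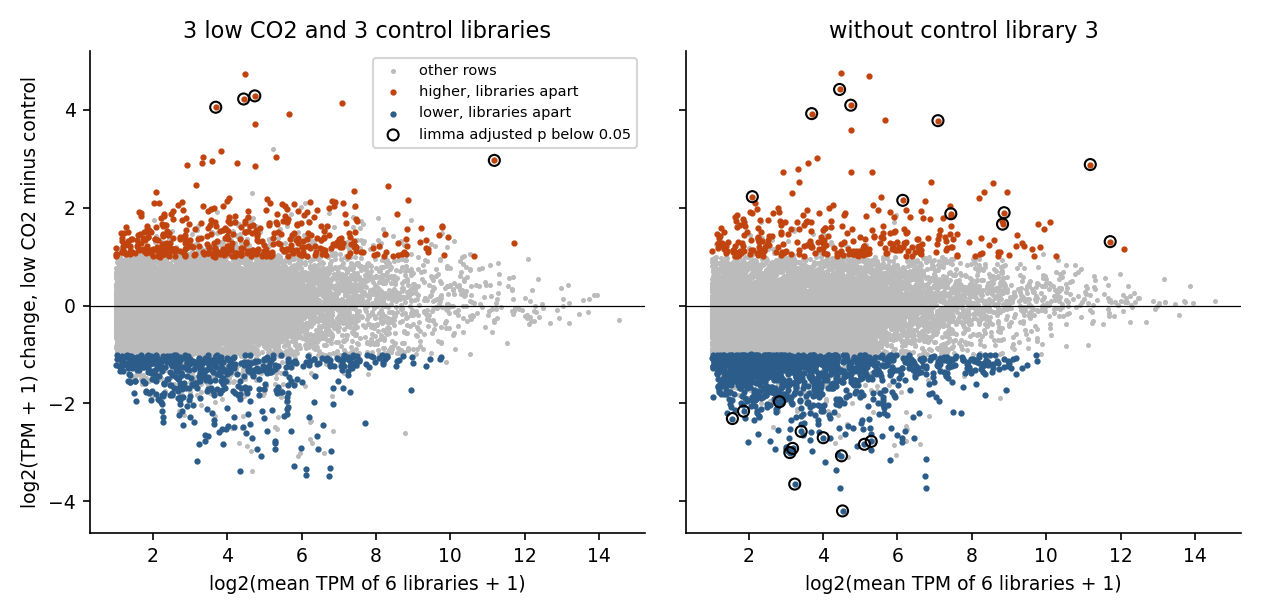
Each point is 1 of 15638 rows, with log2(mean TPM of 6 libraries + 1) on the horizontal axis and the log2(TPM + 1) change, low CO2 minus control, on the vertical axis. Red and blue points stand apart above (411 left, 298 right) and below (520 left, 1149 right), and circles mark rows called by limma (4 left, 23 right). The median change is -0.03 in the left panel and -0.22 in the right.

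Moderately abundant rows stood apart most often, and the most abundant leaf transcripts least often among falls. Of the 1005 rows with a mean between 100 and 1000 TPM, 67 (6.67%) stood apart above and 65 (6.47%) below. Of the 4777 rows between 10 and 100 TPM, 193 (4.04%) stood apart above and 206 (4.31%) below, and of the 9721 rows between 1 and 10 TPM, 148 (1.52%) above and 249 (2.56%) below. The pseudocount of 1 lowers the changes of the last class. Of the 135 rows at 1000 TPM or more, 3 stood apart above and 0 below. With control library 3 left out, the corresponding counts were 5 above and 0 below in the most abundant class, 54 and 112 between 100 and 1000 TPM, 134 and 392 between 10 and 100 TPM, and 105 and 645 in the lowest class. Control library 3 deviated from the mean of the other control libraries by a median of -0.59 (log2) in the lowest class and 0.23 in the highest, so it moved with abundance. Its part in the class counts was not tested beyond that.

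**Figure D4:**
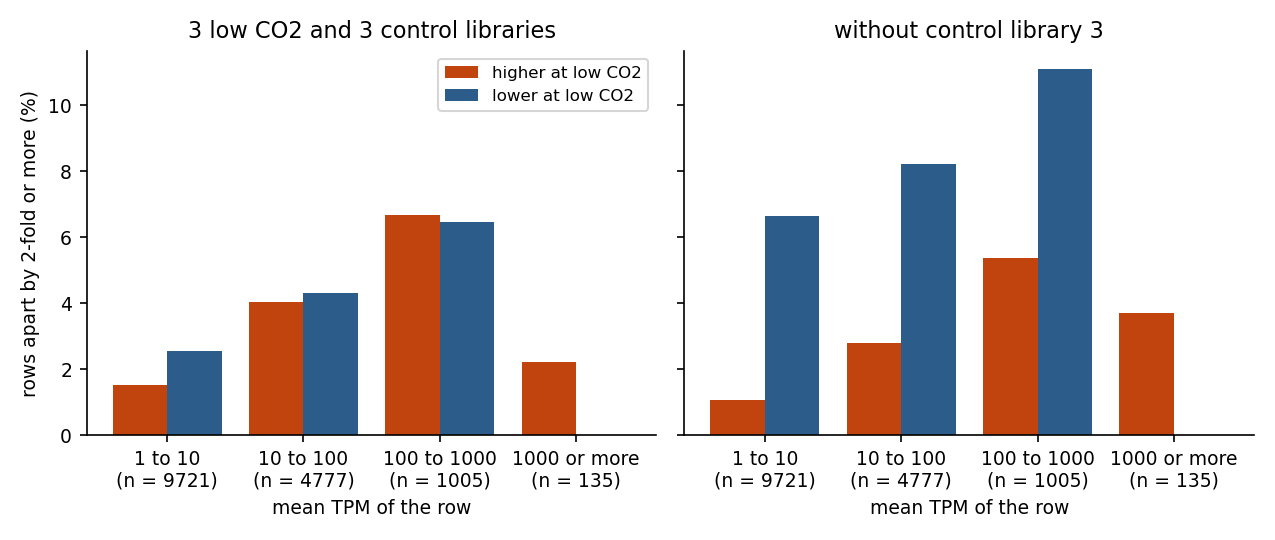
Bars give the percent of rows that stood apart above (red) or below (blue) at low CO2 in 4 classes of mean TPM, with all 6 libraries (left) and without control library 3 (right). Between 100 and 1000 TPM the shares were 6.67% and 6.47% with 6 libraries, and 5.37% and 11.1% without control library 3. At 1000 TPM or more no row stood apart below.

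The 20 most abundant rows, ranked by their mean over the 6 libraries, changed by less than 2-fold. The 20 most abundant rows held 20.6%, 20.6% and 18.7% of the full TPM scale in low CO2 libraries 1 to 3, against 17.8%, 19.8% and 23.6% in control libraries, and their changes lay between -0.36 and 0.53 (log2). In 18 of the 20 the groups overlapped, and in the other 2 all low CO2 libraries were higher, though by less than 2-fold. Without control library 3 all low CO2 libraries were higher in 4 of the 20 and lower in 0. The most abundant row of all had 26443, 19686 and 16376 TPM in low CO2 libraries, against 18623, 19484 and 43147 TPM in control libraries. Control library 3 alone held more than 2 times the level of either other control library in this row. Among the 100 most abundant rows, 18 had all low CO2 libraries above the control libraries and 3 had all below, against 7.90% and 10.6% of all rows. With the 5 remaining libraries these counts were 30 and 6, against 10.1% and 29.4% of all rows. Besides the called row, the rows at 1000 TPM or more that stood apart were one with 5159, 4629 and 4536 TPM in low CO2 libraries, against 1772, 2101 and 2044 TPM in control libraries, and one with 1911, 2288 and 1941 TPM in low CO2 libraries, against 1504, 1407 and 493 TPM in control libraries. The first of these had a limma adjusted p of 0.127 with 6 libraries and 0.0383 without control library 3. The other was not called (adjusted p = 0.444), and its control library 3 lay far below the other control libraries.

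Hardly any of the 15638 rows was switched on or off. Rows with a mean below 1 TPM over the 6 libraries had been left out, so switches at low levels are not all counted. With 6 libraries 1 row was at most 0.1 TPM in every control library and at least 1 TPM in every low CO2 library, and 0 rows showed the reverse. With control library 3 left out, the counts were 1 and 1. The row that was off at control is Gene21045.

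Rows that F. ramosissima shares with no other species behaved somewhat differently from shared rows. Of the 15638 rows, 8632 (55.2%) averaged 1 TPM or more in each other species as well, and 3091 (19.8%) in none. Among the 3091 rows, 138 (4.46%) stood apart above and 96 (3.11%) below. Among the 8632 shared rows, 160 (1.85%) stood apart above and 288 (3.34%) below. The shares without control library 3 were 3.36% above and 8.35% below in the unshared rows, and 1.27% and 6.79% in the shared rows. The median deviation of control library 3 from the mean of the other control libraries was -0.82 (log2) in the unshared rows and -0.47 in the shared rows. This library thus moved with the split, while the share above was higher in the unshared rows without it too. In 2542 rows every library of the other species was listed at 0. The sources used here do not say how rows pair genes of different species, so a row at 0 may be unpaired and not silent. Levels are therefore compared between species only as listed. The 737 rows held only by F. ramosissima and the C4 species F. trinervia had 22 rows (2.99%) apart above and 30 (4.07%) below, against 2.63% and 3.33% of all rows. The counts were 23 (3.12%) and 68 (9.23%) without control library 3, against 1.91% and 7.35% of all rows. In F. trinervia, limma called 9 of the 22 rows higher and 11 of the 30 lower at low CO2, against 63 higher and 73 lower of all 737.

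The rows that stood apart in F. ramosissima were often called in the same direction in the other species, which share no library with it. Of the 411 rows above, 218 could be tested in F. robusta and 110 of them (50.5%) were called higher by limma, against 12.5% of all rows tested there. In F. sonorensis 139 of 215 (64.7%) were called higher, against 9.95% of all rows, and in F. trinervia 137 of 221 (62.0%), against 9.28%. Calls in the opposite direction were made for 11, 6 and 5 of these rows in F. robusta, F. sonorensis and F. trinervia.

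Of the 520 rows below, 263 of 352 tested (74.7%) were called lower in F. robusta, against 18.9% of all rows. In F. sonorensis 206 of 344 (59.9%) were called lower, against 15.6%, and in F. trinervia 188 of 373 (50.4%), against 10.9%. The opposite call was made for 7, 6 and 5 rows. The share among falling rows was thus highest in the C3 species, which also had the highest share of all rows called lower. Among rising rows the share was lowest there, although F. robusta had the highest share of all rows called higher (12.5%). These orders were not tested. The shares without control library 3 were 64.0%, 53.3% and 53.5% among falling rows in F. robusta, F. sonorensis and F. trinervia, and 46.0%, 66.7% and 64.4% among rising rows. Among the rows tested in all 3 other species, 56 of the 160 that stood apart above were called higher in all of them, and 81 of the 288 below were called lower. Of all 8632 rows tested in these species, 192 were called higher and 248 lower in all of them. Of the rows that stood apart, 138 above and 96 below were tested in no other species.

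**Figure D5:**
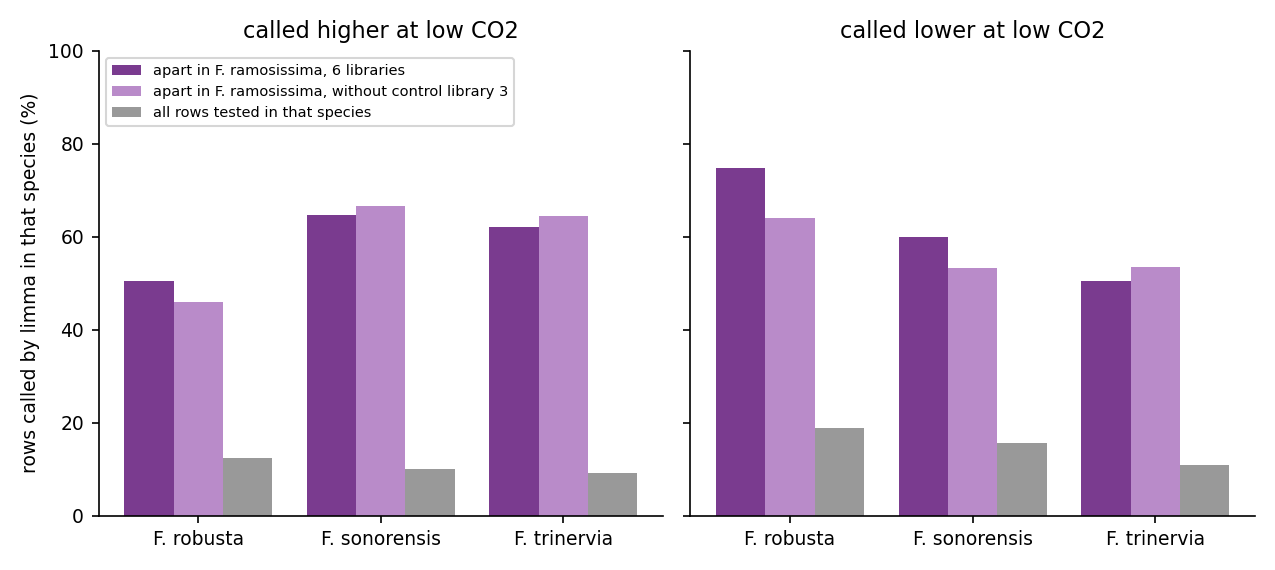
Bars give the percent of rows that limma called higher (left) or lower (right) at low CO2 in each other species. Dark purple bars are rows that stood apart in the same direction in F. ramosissima with 6 libraries, light purple bars the same without control library 3, and grey bars all rows tested in that species. The purple bars lie between 46.0% and 74.7% and the grey bars between 9.28% and 18.9%.

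The comparison was also read from the other side. In the rows that limma called higher in all 3 other species (192 rows), F. ramosissima had a median change of 0.78, against 0.84 for F. robusta, 0.78 for F. sonorensis and 0.84 for F. trinervia. In 104 of these rows all low CO2 libraries of F. ramosissima were above all its control libraries, and 56 (29.2%) stood apart above, against 2.63% of all rows. In the rows called lower in all 3 other species (248 rows), F. ramosissima had a median change of -0.91, against -1.04 for F. robusta, -0.67 for F. sonorensis and -1.18 for F. trinervia, and 81 rows (32.7%) stood apart below, against 3.33% of all rows. Of the 2 sets, 37 (19.3%) and 157 (63.3%) stood apart without control library 3. In 0 of the 192 and 0 of the 248 rows did the F. ramosissima libraries stand clear of each other in the opposite direction. The median change of F. ramosissima without control library 3 was 0.66 in the 192 rows and -1.17 in the 248 rows. The rows were chosen by their calls in the other 3 species and not in F. ramosissima, which can enlarge the medians there. The sizes of the medians therefore cannot be ranked between F. ramosissima and the other species.

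When the spread was estimated from the 24 libraries of all 4 species, more of the F. ramosissima response was called. Over the 8632 shared rows this fit called 517 rows higher and 870 lower in F. ramosissima. Without control library 3 it called 484 higher and 1912 lower, with 394 rows higher in both. The 4 rows called with 6 libraries are not among these 8632, as each averaged below 1 TPM in another species. In this fit control library 3 is assumed to vary like the other libraries, although the median residual SD within F. ramosissima was 0.443, and 0.302 without that library. Its p-values may be too small for rows in which control library 3 deviated.

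A difference between the low CO2 change of F. ramosissima and the mean change of the other 3 species was called in few rows. Only the 8632 shared rows could be tested, which again leaves out the rows called with 6 libraries. Limma called 52 of 8632 rows (0.602%), 21 with a higher and 31 with a lower change in F. ramosissima, and 1136 rows had an unadjusted p below 0.05. Without control library 3 it called 234 rows (2.71%), 41 with a higher and 193 with a lower change, and all 52 were among them. The count moved with every F. ramosissima library, and lay between 15 (without low CO2 library 1) and 284 (without control library 2). After median-ratio scaling 60 rows had a higher and 33 a lower change, and 142 had a higher and 70 a lower change without control library 1, and 12 and 12 without low CO2 library 2. The direction with more rows thus depended on the scaling and on single libraries. In the 21 rows the difference lay between 0.65 and 2.95 (log2), with a median change of 0.85 in F. ramosissima, against -0.78 for F. robusta, -0.09 for F. sonorensis and -0.08 for F. trinervia. In the 31 rows it lay between -2.61 and -0.71, with medians of -0.91, 0.29, 0.23 and 0.36 in the same order of species. In 5 of the 21 and 11 of the 31 rows the sign of the change in F. ramosissima was opposite to that in all 3 other species. In 2 and 5 rows it was the same as in all 3. Of the rows called without control library 3, the 6-library change was opposite in 9 of 41 and 42 of 193. It was the same in 5 and 55 of these. The rows were chosen by the size of this difference, which favours opposite signs.

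Examples chosen after their values were seen show what such differences look like. Among rows of at least 10 TPM, the largest positive difference was 2.95 (SE 0.56, limma adjusted p = 0.0188). That row had 323, 134 and 314 TPM in low CO2 libraries of F. ramosissima, against 17.5, 15.5 and 7.26 TPM in control libraries. The mean was also higher at low CO2 in F. sonorensis (988 ± 239.6 TPM, against 168.5 ± 49.0 TPM at control, SD, n = 3 libraries each) and F. trinervia (876 ± 399.6 TPM, against 244 ± 35.5 TPM), while F. robusta had 35.5 ± 22.5 TPM at low CO2 and 51.5 ± 15.1 TPM at control. The largest negative difference was -2.42 (SE 0.38, limma adjusted p = 0.00419). That row had 6.64, 4.51 and 8.94 TPM in low CO2 libraries of F. ramosissima, against 55.3, 14.8 and 45.7 TPM in control libraries. In F. trinervia it had 2585 ± 167 TPM at low CO2 and 1889 ± 228 TPM at control (SD, n = 3 libraries each), in F. sonorensis 1043 ± 98.03 and 1152 ± 248 TPM, and in F. robusta 70.0 ± 15.2 and 56.9 ± 10.9 TPM. The row was thus low in F. ramosissima at both CO2 levels and lower still at low CO2, whereas it was among the abundant transcripts of the C4 and Type I species. Both differences were also called without control library 3 (limma adjusted p = 0.0266 and 0.00934).

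It was finally asked whether low CO2 moved F. ramosissima along the difference between C4 and C3 leaves. Rows were listed from control libraries of F. trinervia (C4) and F. robusta (C3) alone, as those with a limma adjusted p below 0.05 and a log2 difference of at least 2, with 1 species for each photosynthetic type. Of 10983 rows compared, 547 were higher and 484 lower in F. trinervia, and 495 and 415 of these were among the F. ramosissima rows. In the 495 rows higher in C4, the median change at low CO2 in F. ramosissima was -0.02, with 239 rows above and 256 below 0. In the 415 rows lower in C4 it was -0.02, with 205 above and 210 below 0. The medians over all 15638 rows (-0.03) were close to these. Leaving out control library 3 gave medians of -0.26, -0.11 and -0.22 in the same order.

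In the rows higher in C4, 17 (3.43%) stood apart above and 24 (4.85%) below, and in the rows lower in C4, 19 (4.58%) and 24 (5.78%). Over the rows compared between C4 and C3 that F. ramosissima also held, these shares were 1.85% and 3.45%. The counts without control library 3 were 10 (2.02%) above and 54 (10.9%) below in the rows higher in C4, and 16 (3.86%) and 33 (7.95%) in the rows lower in C4, against 1.26% and 6.94% of the rows compared. With 6 libraries limma called 0 of the listed rows in F. ramosissima (30 and 38 at an unadjusted p below 0.05, higher and lower, in the rows higher in C4, and 33 and 38 in the rows lower in C4). The F. ramosissima level was nearer to F. trinervia than to F. robusta in 149 of the 495 rows at low CO2 and in 149 at control, and in 249 of the 415 rows at low CO2 and in 249 at control. The control counts were 181 and 238 without control library 3. Of the 9456 rows compared that F. ramosissima also held, 4392 were nearer to F. trinervia at low CO2 and 4436 at control (4549 without control library 3). At both CO2 levels, F. ramosissima was thus nearer by level to the C3 species in most rows that are higher in C4. It was nearer to the C4 species in most rows that are lower in C4. The lists were chosen for a large difference between F. trinervia and F. robusta, and how far that choice sets these counts was not tested.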

How the data were processed

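Leaf mRNA-seq libraries of F. ramosissima (3 at low CO2 and 3 at control) were compared, with 18 libraries of the other species as context. Per the methods stated for RNA-seq of these species, the authors used STAR (V2.7) to align 150 bp paired-end reads to each species' own genome. They used RSEM (V1.3.3) to estimate TPM. The labels name RSEM and edgeR without a version. That the deposited low CO2 TPM come from the steps in the methods is inferred and not stated. Draft genomes of the 4 species are described there, with no assembly version. The stated growth conditions differ from the labels, and the low CO2 treatment is not described there. The columns sum to 91.2% to 92.6% of the full TPM scale in F. ramosissima, and depth is unknown. RSEM divides reads between similar copies, so near-identical copies are uncertain.

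Columns were assigned by sample code, and 0 were left unused. Of the rows, 8 were left out because their 4 IDs occur more than once. Values were tested as log2(TPM + 1) by limma (version 3.58.1, R 4.3.3; two-sided, trended eBayes, Benjamini-Hochberg), which understates the changes of low rows. Single values were tested by exact permutation. Fits were tested on simulated data. Named IDs were the 2 largest rises and 2 largest falls with a mean of at least 10 TPM and groups that did not overlap. The planned gene lists were not run, because 0 IDs held a name. The members, lists and tests were chosen with earlier results of these data known. Alternatives covered the pseudocount, the minimum TPM, scaling, trend, library weights, the replicate block and each library. The mixed-organ sample was not analysed here.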

Additional observations from a re-analysis of the deposited data

Results flagged for a closer look

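The low CO2 change of F. ramosissima differed from the mean change of the other 3 species in 52 of 8632 rows by limma's test of the difference (adjusted p below 0.05). This difference between species is the reason the count is listed here. It was 234 without control library 3. Rows that averaged below 1 TPM in any species were not tested.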

How the results depend on the processing

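The count of called rows (4) was 112 with library weights and 0 with the replicate block (1340 at an unadjusted p below 0.05 in limma). It was 0 to 23 when leaving out each library. The fit of all 24 libraries called 1387 of the 8632 shared rows, a smaller set of rows that holds none of the 4. Rows apart by 2-fold (931 in all) were 534 at a minimum of 10 TPM, 102 at 4-fold and 814 to 1600 without each library. Those called alike in another species (555) were 67 at 4-fold and 445 to 917 without each library. Rows that differed from the other species (52) were 93 after median-ratio scaling, 94 after quantile normalization, 21 at a minimum of 10 TPM, and 15 to 284 without each library. The difference in rows detected (-140) was 318 at a threshold of 0.1 TPM, 4.67 after median-ratio scaling, and -1276 to 599.7 without each library. The causes were not tested, except that a stricter minimum or fold leaves fewer rows. The medians of the rows higher and lower in C4 moved by less than the spread between libraries in 10 of 10 alternatives each. That spread was the SD of the library medians (0.31 and 0.17, log2), which control library 3 itself widens in the rows higher in C4. Without this library their median moved from -0.02 to -0.26, with 152 rows above and 343 below 0. The check therefore cannot show that this result is stable. The adjusted p of Gene23445 ranged from 0.00123 to 0.196 over 14 alternatives (8 below 0.05), and Gene04686 passed in 1 of its 14, library weights (0.0442), and in the fit of all 24 libraries (0.000158).

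Deviations of equally numbered low CO2 and control libraries correlated at 0.09, -0.09 and -0.27, which gives no sign of a pairing by number. So few values cannot exclude a pairing. The replicate block gave 73 rows that differed from the other species. Because TPM keeps no depth, no counting error can be given.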
